A study of Arabidopsis thaliana with 3 samples.

Results

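The genes described here are the PHYTOCHROME INTERACTING FACTOR (PIF) genes of Arabidopsis thaliana and their close relatives HFR1 and PIL1, and the measurement is where the proteins DIG1 and DIG2 were found on chromatin at them. The members were listed by locus: PIF1 (AT2G20180), PIF3 (AT1G09530), PIF4 (AT2G43010), PIF5 (AT3G59060), PIF6 (AT3G62090), PIF7 (AT5G61270), PIF8 (AT4G00050), HFR1 (AT1G02340) and PIL1 (AT2G46970). They are 9 of 27444 nuclear protein-coding genes. A summit, the point of highest enrichment that the authors' peak caller gives for a binding region, was assigned to a gene when it lay inside the gene or within 3000 bp of either end.

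The series holds 3 ChIP-seq samples of accession Col-0, all from whole seedlings aged 4 days, kept in darkness and given 10 uM dexamethasone for 6 h. One sample carried GFP alone, one GFP fused to DIG1 (labelled with locus AT3G45810) and one GFP fused to DIG2 (AT5G50360), each precipitated with the same GFP antibody. Dexamethasone, a steroid, is commonly used to induce transgenes; which promoters drove the 3 transgenes here is not stated in the labels. A peak list was analysed for DIG1 (13459 summits) and for DIG2 (16562 summits), with 1 list per factor, no replicate list and no list of the GFP sample. All values below therefore describe these lists and carry no replicate error, and the signal that GFP alone gives at these loci was not analysed here.

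PIF proteins are basic helix-loop-helix (bHLH) transcription factors that bind the photoreceptor phytochrome. In darkness several of them accumulate and promote elongation while holding back greening, and light-activated phytochrome leads to the breakdown of these. HFR1 lacks the usual DNA-binding residues and pairs with PIF proteins, which keeps them from DNA, and PIL1 is a rapidly shade-induced relative that also restrains elongation.

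All 9 genes held summits of both factors. By the same rule 54.9% of all protein-coding genes held a DIG1 summit, 59.7% a DIG2 summit and 53.3% both, so a summit within 3000 bp is by itself a common property. The 9 genes held 28 DIG1 summits in 20 peak intervals and 36 DIG2 summits in 22 intervals. That was a mean of 3.11 DIG1 and 4.00 DIG2 summits per member, against means of 1.03 and 1.25 over all protein-coding genes. The members ranged from 2163 to 3887 bp in length with a median of 2545 bp, and the median protein-coding gene was 2078 bp, so their windows were somewhat longer than usual. The 9 genes all kept summits of both factors when −log10 p had to reach 30, against 43.8% of all genes for DIG1, 51.9% for DIG2 and 42.8% for both. At least 3 summits were held by 5 members for DIG1 and by 8 for DIG2, against 12.6% and 17.5% of all genes.

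Several members held summits high in both lists. Summits were ranked within each list by the authors' −log10 p, with rank 1 the strongest. The cutoffs used next, the 1000 strongest summits and the 1000 highest folds, were added after the values were seen. PIF3, PIF5, PIF6, PIF7 and HFR1 each held at least 1 of the 1000 strongest summits of both lists. These 5 of 9 genes compare with 7.27% of all protein-coding genes for DIG1, 6.56% for DIG2 and 5.21% for both. Among the 1000 highest folds of each list the counts were again 5 members for DIG1 and 5 for DIG2, against 7.54% and 6.71% of all genes, and 4 for both, against 5.17%. PIF5 dropped out of the DIG2 set there and PIF1 entered it. The median rank of a member's strongest summit was 552 for DIG1 and 854 for DIG2, while over all genes with a summit it was 4857.5 and 6018. A gene with more summits has more chances of a high-ranked one, and summit number was not matched in these comparisons. The authors' fold enrichment had a median of 4.98 over the 28 DIG1 summits against 3.19 for the whole list. For DIG2 the median was 5.30 over the 36 summits against 3.80. Fold and −log10 p depend on read depth, which is unknown here, so they are compared only within a list.

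**Figure D1:**
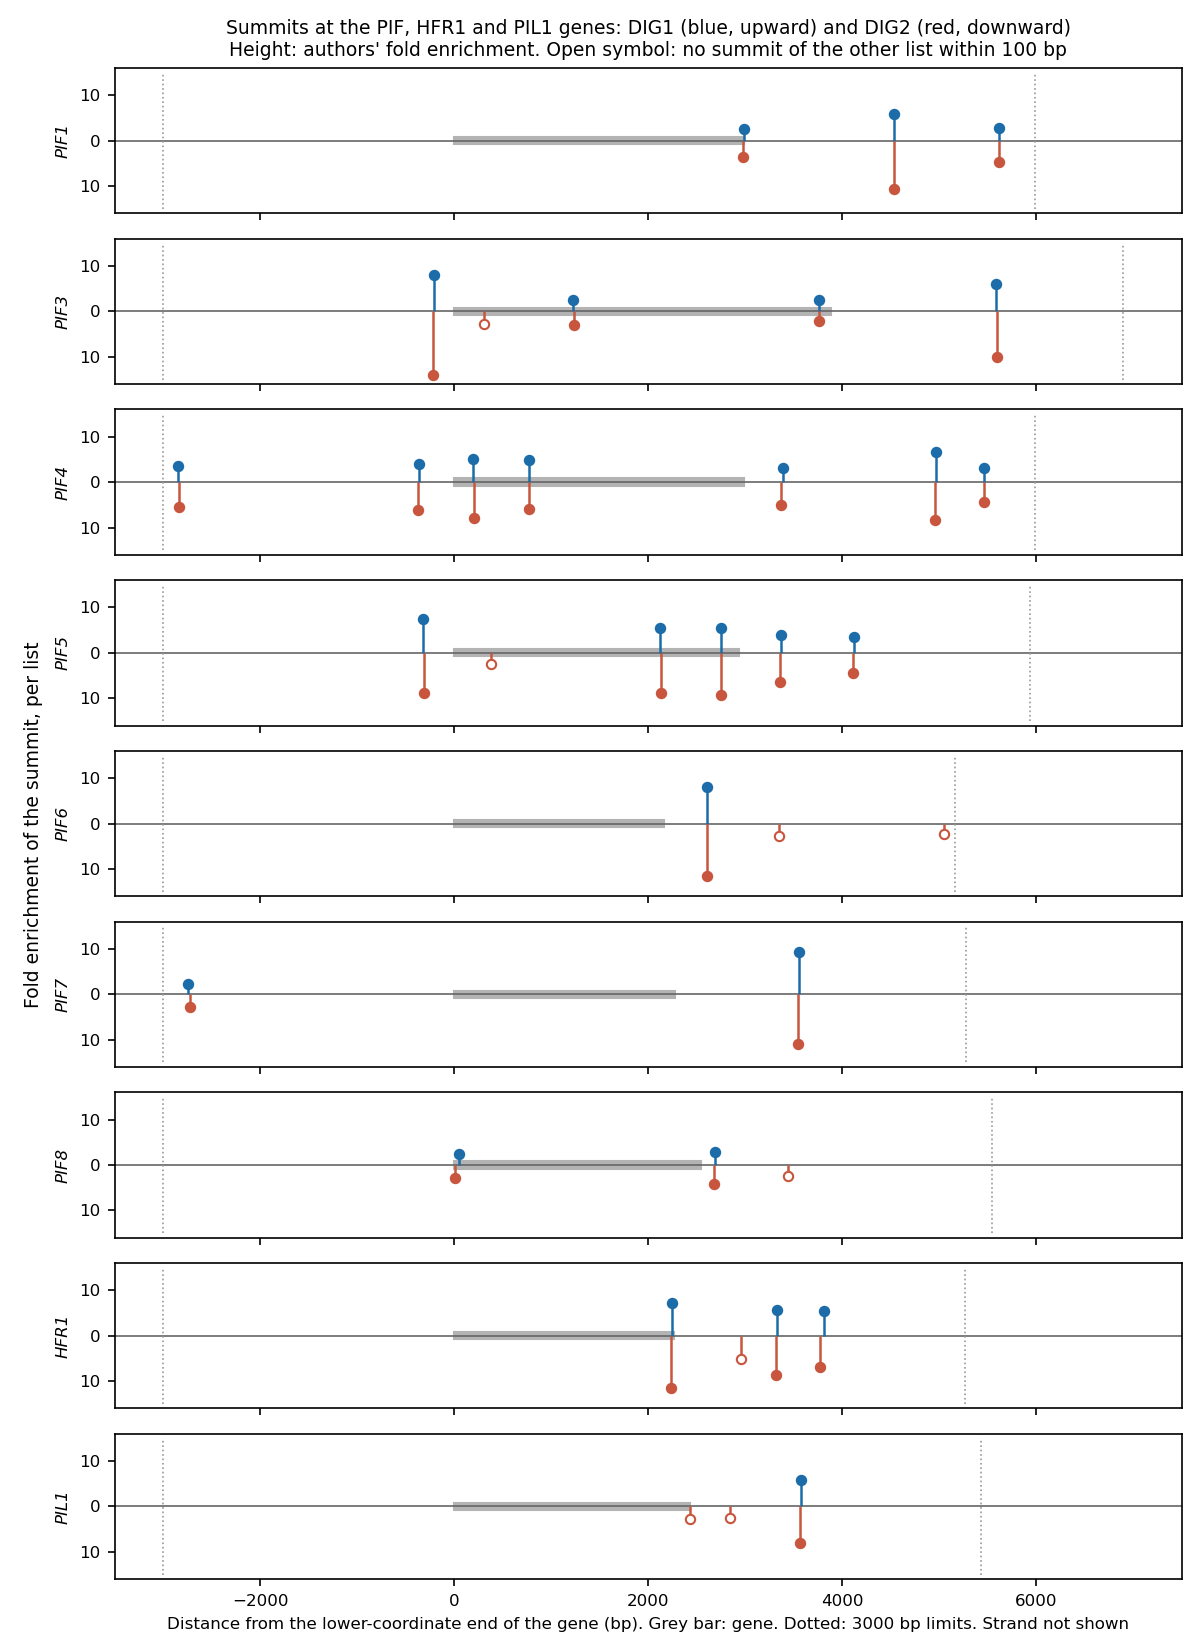
Summits at the 9 genes, with distance from the lower-coordinate end of each gene on the horizontal axis (bp) and the authors' fold enrichment as the height, DIG1 upward and DIG2 downward. Each of the 28 DIG1 summits has a DIG2 summit opposite it, and the 8 open symbols are DIG2 summits with no DIG1 summit within 100 bp.

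At the members the summits of the lists lay close together, as they did across the whole lists. All 28 DIG1 summits had a DIG2 summit within 100 bp, against 94.7% of all DIG1 summits, at a median distance of 8.5 bp and at most 40 bp. The median distance of partners over the whole lists was 11 bp. Of the 36 DIG2 summits 28 had such a partner (77.8%), against 77.0% of all DIG2 summits, so the share of DIG2 summits without one was like that of the list. In 8 of the 9 genes the strongest summit of one list was the partner of the strongest of the other, PIF4 being the exception. This share (88.9%) was the same as over all 14636 genes with summits of both factors (88.9%). Both samples were precipitated with the same antibody, and how much of this sharing comes from what the precipitations have in common was not tested.

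PIF1 and PIF3 are major repressors of light responses in dark-grown seedlings. PIF1, which also holds back seed germination and chlorophyll synthesis, had 3 summits of each factor. All were at or beyond its higher-coordinate end. One lay at that end itself, 1 bp inside the gene for DIG1 (fold 2.50) and 12 bp inside for DIG2 (fold 3.56). The strongest stood 1546 bp outside for DIG1 (chromosome 2, 8708555, fold 5.79, rank 2160) and 1545 bp outside for DIG2 (fold 10.7, rank 1138), with PIF1 the nearest protein-coding gene. The outermost, at 2630 and 2631 bp, was closer to CLASP (AT2G20190), a microtubule-associated protein gene.

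PIF3, the founding member of the family, held the strongest DIG2 summit of all 9 genes. It lay on chromosome 1 at 3075544, 224 bp outside the lower-coordinate end, with a fold of 14.1 and rank 97. Its DIG1 partner at 3075563 had a fold of 8.09 and rank 397. On the opposite side a second strong summit stood 1693 bp outside for DIG1 (fold 6.03, rank 1603) and 1709 bp outside for DIG2 (fold 10.1, rank 1005). PIF3 was thus flanked by strong summits on both sides, and all of its 4 DIG1 and 5 DIG2 summits were nearer to it than to any other protein-coding gene. The summits inside PIF3 were weak. Folds there were 2.46 and 2.41 for DIG1 and from 2.05 to 3.05 for DIG2, under the medians of both lists.

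PIF4 and PIF5 promote elongation in shade, PIF4 also in warmth, and they held the most summits. PIF4 had 7 of each factor, a number reached by 62 genes (0.226%) for DIG1 and 153 (0.557%) for DIG2. Only 4 of the 7 in each list were nearer to PIF4 than to a neighbour. For DIG1 the strongest stood 1974 bp beyond the higher-coordinate end (chromosome 2, 17891061, fold 6.72, rank 1119), but it was 442 bp from PAO2 (AT2G43020), which encodes a polyamine oxidase. The DIG2 partner of that summit had the highest PIF4 fold in its list (8.36, rank 1818). By −log10 p the strongest DIG2 summit was another, 205 bp inside the lower-coordinate end of PIF4 (17886306, fold 7.94, rank 1571), whose DIG1 partner lay 190 bp inside (fold 5.14, rank 2078). A further summit, 2853 and 2840 bp outside the lower end, was closest to NAC042 (AT2G43000), a NAC transcription factor gene.

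PIF5 had 5 DIG1 and 6 DIG2 summits, numbers reached by 1.93% and 1.43% of genes. The strongest stood outside the lower-coordinate end, at 319 bp for DIG1 (chromosome 3, 21827586, fold 7.43, rank 391) and 315 bp for DIG2 (21827590, fold 8.91, rank 796). It was closer still to PAO3 (AT3G59050), another polyamine oxidase gene, at 77 and 81 bp. Which of the neighbouring genes such a summit belongs to cannot be told from position. Inside PIF5, near its other end, lay further strong summits with folds of 5.50 and 5.48 for DIG1 and 8.87 and 9.37 for DIG2. A summit 438 and 429 bp outside that end fell within the long non-coding RNA entry AT3G09185, the only summits of the members inside a non-coding entry of the gene table.

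PIF4 and PIF5 shared an arrangement, which was noticed after the values were seen. Each had an interval with 3 summits across 1 gene end, the lower-coordinate end in PIF4 and the higher-coordinate end in PIF5, and in each the polyamine oxidase gene lay on the opposite side. Measured from the end that the interval spans, the 3 DIG1 summits of PIF4 stood 368 bp outside, 190 bp inside and 768 bp inside. Those of PIF5 stood 438 bp outside, 188 bp inside and 810 bp inside. The DIG2 summits lay 377 bp outside and 205 and 765 bp inside for PIF4, and 429 bp outside and 182 and 807 bp inside for PIF5. Corresponding summits of the 2 genes thus differed in position by 2 to 70 bp.

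**Figure D2:**
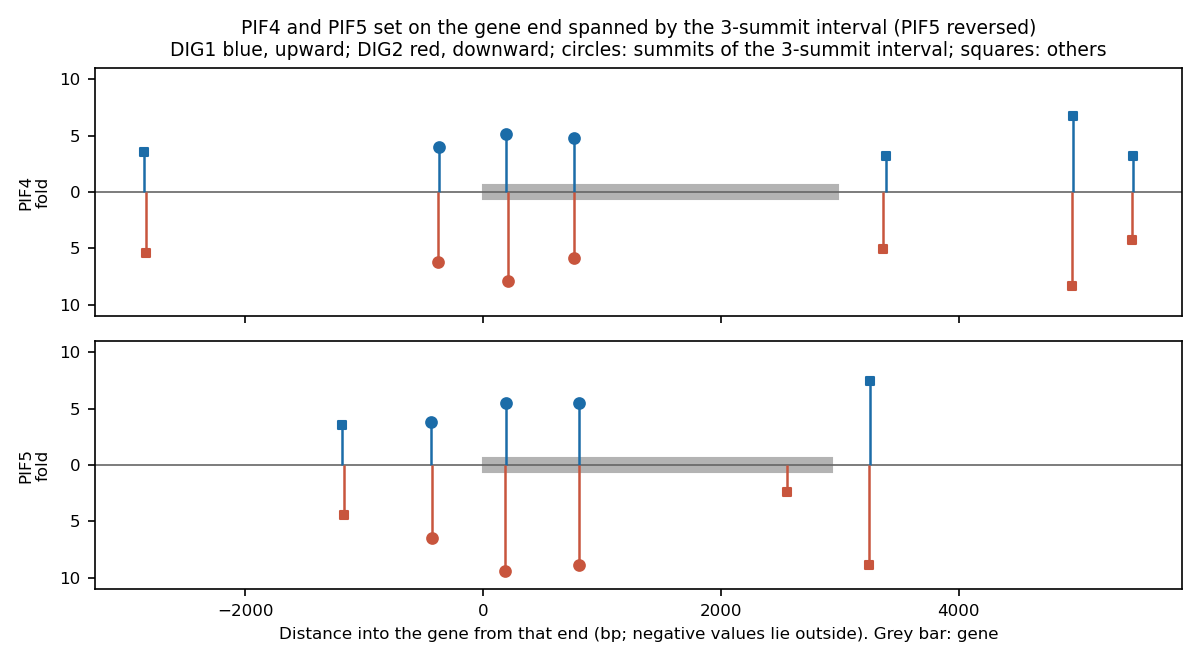
Summits at PIF4 and PIF5, with distance into the gene from the end that the 3-summit interval spans on the horizontal axis (bp, PIF5 reversed) and the authors' fold as the height, DIG1 upward and DIG2 downward. The 3 circles of each gene lie at matching distances, within 70 bp of each other. In both genes a square of each list also stands just beyond the opposite end. Measured from that opposite end, it lay 400 bp (DIG1) and 381 bp (DIG2) outside PIF4, and 319 and 315 bp outside PIF5. The other squares do not line up in the same way.

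PIF6, known for a part in seed dormancy, had the strongest DIG1 summit of the 9 genes by −log10 p. It lay at the same base in both lists, on chromosome 3 at 22991148, 439 bp outside the higher-coordinate end. Its fold was 8.10 for DIG1 (rank 241) and 11.7 for DIG2 (rank 138), and the next protein-coding gene was 2371 bp away. It was the single DIG1 summit of PIF6. DIG2 had another pair, at 1180 and 2886 bp outside, with folds of 2.69 and 2.24 in the weaker part of the list.

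PIF7, the main PIF of the shade response, held summits of both factors only at a distance. The strong one stood 1278 bp outside the higher-coordinate end for DIG1 (chromosome 5, 24642043, fold 9.34, rank 355) and 1267 bp outside for DIG2 (24642032, fold 10.9, rank 854). Its DIG1 fold was the highest among the members. AT5G61280 lay on its far side at 1513 and 1524 bp, so PIF7 was the nearest gene by a small margin. The other summit, 2745 and 2725 bp outside the lower-coordinate end, was weak (folds 2.20 and 2.91) and closer to GUS1 (AT5G61250). No summit of either list lay within 1000 bp of PIF7.

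PIF8, also named UNE10 and known to restrain responses to far-red light through phytochrome A, was the weakest member by rank. By −log10 p, both of its DIG1 summits and all 3 of its DIG2 summits lay below the middle of their lists. By fold, its strongest DIG2 summit (4.23) was above the list median of 3.80. Summits stood at its lower-coordinate end, 47 bp inside for DIG1 (fold 2.36, rank 13104) and 9 bp inside for DIG2 (fold 2.76, rank 13792). Beyond the higher-coordinate end they stood at 143 bp for DIG1 (chromosome 4, 20326, fold 2.92, rank 9391) and 136 bp for DIG2 (20319, fold 4.23, rank 8705). The next summits outside the 3000 bp window of PIF8 were 34183 bp away for DIG1 and 34191 bp for DIG2, the longest such distances among the 9 genes.

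The antagonists HFR1 and PIL1 differed from each other in strength. At HFR1 a single interval of each list, on chromosome 1 from 467438 to 469739 for DIG1 and from 467385 to 469759 for DIG2, held all summits. It spanned the higher-coordinate end of the gene. The strongest was 21 bp inside that end for DIG1 (467859, fold 7.23, rank 552) and 27 bp inside for DIG2 (467853, fold 11.4, rank 217). A second stood 1062 bp outside for DIG1 (fold 5.74, rank 696) and 1054 bp outside for DIG2 (fold 8.70, rank 433). HFR1 was the sole member with a pair of summits among the 1000 strongest of each list by −log10 p, and had 1 among the 1000 highest folds of each. The outer of these summits was closer to the neighbour AT1G02350, at 876 and 884 bp.

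PIL1 had 1 DIG1 and 3 DIG2 summits. The shared one stood 1146 bp outside the higher-coordinate end for DIG1 (chromosome 2, 19299004, fold 5.75, rank 1672) and 1132 bp outside for DIG2 (19298990, fold 8.03, rank 1833). It was nearer to ASY3 (AT2G46980), a gene of meiotic chromosome axes, at 488 and 502 bp. The DIG2 summits without a partner lay 2 bp inside that end of PIL1 (fold 2.78) and 419 bp outside it (fold 2.48). PIL1 was therefore the only member whose DIG1 summits were all nearer to another gene.

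**Figure D3:**
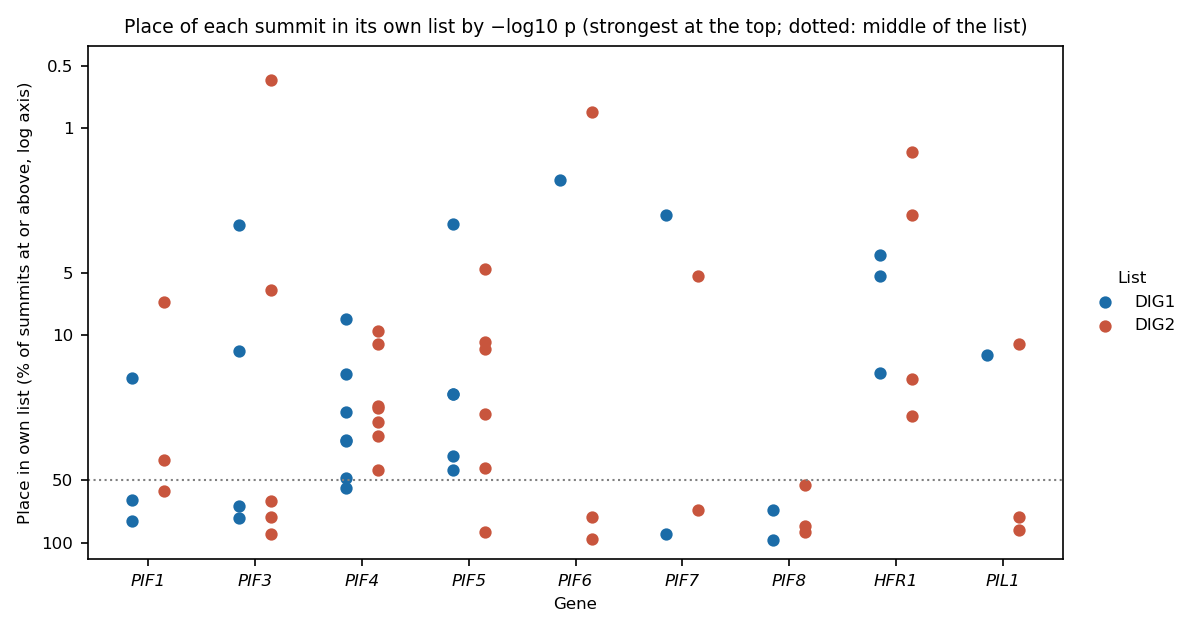
Place of every summit of the 9 genes in its own list, as the percentage of summits at or above it by −log10 p (logarithmic axis, strongest at the top), with DIG1 in blue and DIG2 in red. PIF3 and PIF6 reach the top 1% of the DIG2 list, PIF8 stays below the middle of both lists, and most genes hold strong and weak summits side by side.

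The 8 DIG2 summits with no DIG1 summit within 100 bp belonged to PIF3, PIF5, PIF6, PIF8, HFR1 and PIL1. Of these, 7 had folds under the DIG2 list median of 3.80. The remaining one, 694 bp outside HFR1 (chromosome 1, 468574), had a fold of 5.18 and rank 4069. It lay inside the DIG1 interval of HFR1, 368 bp from the nearest DIG1 summit. In all, 4 of the 8 fell within a DIG1 interval and 4 outside every one. The shares under the median and within a DIG1 interval were not counted over all DIG2 summits without a partner. These counts are therefore not read as particular to the members. The DIG2 list is the longer of the pair, and binding by DIG2 alone cannot be told apart from a difference in depth or calling.

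By position, 9 of 28 DIG1 summits (32.1%) and 12 of 36 DIG2 summits (33.3%) lay inside the member genes. Over all pairs of a protein-coding gene and a summit within 3000 bp, 13.7% and 13.9% lay inside. At more than 1000 bp outside lay 12 DIG1 (42.9%) and 14 DIG2 summits (38.9%), against 48.3% and 48.8% of all pairs. Summits within 50 bp of a gene end numbered 3 for DIG1, at PIF1, PIF8 and HFR1, and 4 for DIG2, at the same genes and PIL1. These were 10.7% and 11.1% of the members' summits, against 7.06% and 6.96% of all pairs. The summits near an end all lay inside the genes, so they are also part of the inside counts. All other inside summits were at PIF3, PIF4 and PIF5. The gene table used here gives neither strand nor exons, so transcription starts, exons and introns were not told apart.

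Summits of the members were often crowded into shared intervals. Intervals with at least 3 summits held 9 of the 28 DIG1 summits (32.1%), at PIF4, PIF5 and HFR1, against 8.56% of all DIG1 summits. For DIG2 they held 16 of 36 (44.4%), at PIF3, PIF4, PIF5, HFR1 and PIL1, against 11.8% of the list.

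The choice of window decided which genes counted as holding a summit. With 1000 bp, 7 members kept a DIG1 summit, 8 a DIG2 summit and 7 both, against 37.7%, 42.3% and 36.3% of all genes. The same counts were found with 500 bp, against 31.0%, 35.1% and 29.6%. PIF7 dropped out of both lists and PIL1 out of the DIG1 list. When each summit counted only for its nearest protein-coding gene, 8 members had a DIG1 summit and 9 a DIG2 summit, against 31.2% and 35.4% of all genes. Just inside the 3000 bp limit lay the DIG2 summit 2886 bp from PIF6 (fold 2.24), and just outside it the DIG1 and DIG2 summits 3027 and 3049 bp from PIF6 (folds 2.57 and 3.30). Some strong summits lay a little beyond the window, at 3171 and 3172 bp from PIF3 (folds 7.41 and 11.6, ranks 408 and 183) and at 3398 and 3396 bp from PIF1 (folds 7.83 and 12.2, ranks 619 and 371). Other genes were nearer to them, AT1G09520 at 523 and 522 bp and CLASP at 1172 and 1174 bp.

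**Figure D4:**
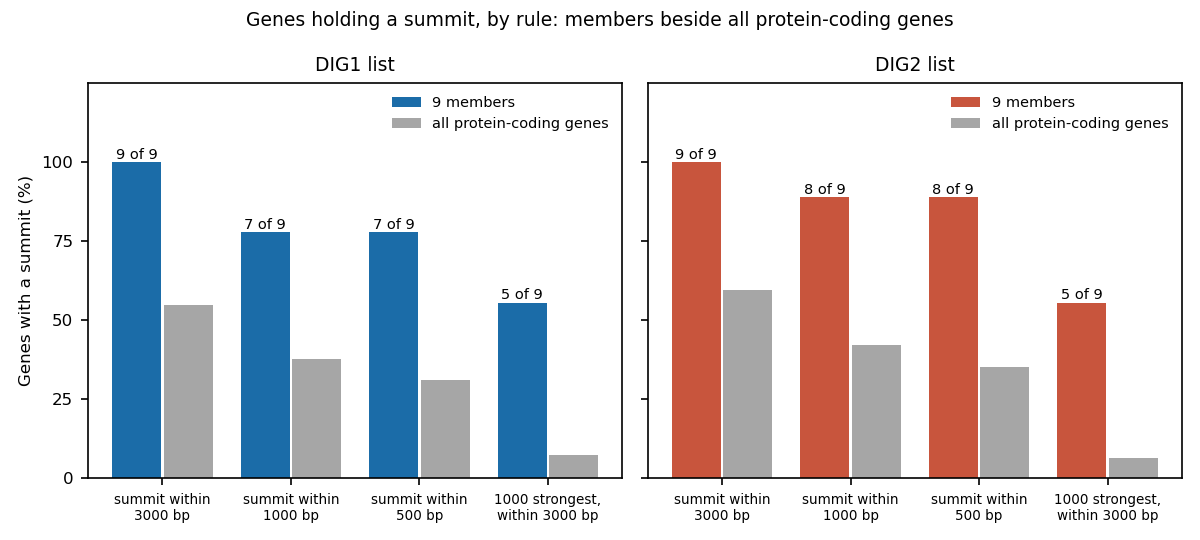
Percentage of genes holding a summit under 4 rules, for the 9 members (colour) and for all 27444 protein-coding genes (grey), in each list. The bars start at 0. All 9 of 9 members hold a summit within 3000 bp, and 5 of 9 hold one of the 1000 strongest against 7.27% and 6.56% of all genes. The rule of the 1000 strongest was added after the values were seen.

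Genes that act with the PIF proteins were counted by the same 3000 bp rule, beside 54.9% of all genes for DIG1, 59.7% for DIG2 and 53.3% for both. Among the 6 closest bHLH relatives, 5 held a DIG1 and 6 a DIG2 summit. None held one of the 1000 strongest, but only 7.27% of all genes did for DIG1 and 6.56% for DIG2. SPT, a regulator of carpel growth and germination, ranked highest there (2099 and 4218, folds 4.78 and 5.06). The median rank of the strongest summit in these relatives was 9926 for DIG1 and 10016.5 for DIG2, in contrast to 552 and 854 for the 9 members. The relatives also held fewer summits, with medians of 1 for DIG1 and 2 for DIG2, against 3 for each factor in the members. Neighbouring bHLH56 (AT4G28800) and bHLH119 (AT4G28811) share the same strongest summits, so this list has fewer independent sites than genes.

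Of the phytochrome genes, whose products trigger the breakdown of several PIF proteins, 3 of 5 held summits of both factors. PHYB led (ranks 978 and 837, folds 7.33 and 11.1), although these strongest summits were nearer to AT2G18780. The strongest summits of PHYA and PHYD were also nearer to other genes, GLP5 at 82 and 16 bp and NRPB9B at 28 and 33 bp. PHYC and PHYE had no summit. Among COP1, the SPA genes and DET1, repressors of light responses in darkness, 4 of 6 had summits of both and SPA2 and DET1 had none. The strongest there, at SPA1 (ranks 1742 and 1667), was nearer to AGP16. These shares were close to the background.

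All 5 DELLA genes, encoding gibberellin-regulated proteins that bind and block PIF proteins, held summits of both factors, against 53.3% of all genes. They were led by RGL1 (ranks 1594 and 1762) and RGA (ranks 1987 and 2152). Of 10 genes for other HLH proteins that pair with bHLH factors of light and growth responses, HEC1 and HEC2 among them, 7 held DIG1 and 10 held DIG2 summits. PRE1 (ranks 2000 and 2003), PAR2 (1713 and 2459) and KDR (2968 and 1674) led this list. The strongest KDR summit of each list was nearer to AtHB23, and PRE3, PRE4 and HEC2 had DIG2 summits alone. Those DIG2 summits were weak, at ranks 16162, 11900 and 14144 of 16562. Over all genes, 59.7% held a DIG2 summit and 53.3% held summits of both, so DIG2 summits alone also occur elsewhere. No DELLA or HLH gene held one of the 1000 strongest summits. Only 7.27% of all genes did for DIG1 and 6.56% for DIG2, so this is not read as a contrast.

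Genes known as PIF targets in darkness or shade all held summits, as the members did. All 10 had summits of both factors, against 53.3% of all genes. Of these, 4 had one of the 1000 strongest in each list, against 5.21% of all genes. CDF5 (AT1G69570), a DOF factor gene, had ranks 57 and 38 (folds 9.89 and 13.0). PSY, for phytoene synthase of carotenoid production, had rank 129 in both lists (folds 11.6 and 15.4). HB-2, a shade-induced homeodomain gene, had ranks 205 and 84, and the auxin response gene IAA19 ranks 213 and 164. At IAA29 the strongest summits were weak, at ranks 8446 and 7457. No test was run between these short lists, which were chosen with earlier results of these data known, and the counts are descriptions.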

How the data were processed

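Per the submitters' processing notes, Bowtie 0.12.7, MACS2 and the TAIR10 build were used; the MACS2 version, the control and whether replicates were pooled are not stated. Per the labels' protocols, chromatin was sheared to 100 to 500 bp. The deposited narrowPeak lists give, per summit, the authors' fold enrichment (a ratio), −log10 p (none under 16), −log10 q and a score; the last pair was not used. Depth is unknown, so values were ranked only within a list. Summit positions are counted from 1 on TAIR10.

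Gene names and neighbours came from a RefSeq table of assembly TAIR10.1, with 38312 entries and no strand, exons or sequence. All 9 members and 42 pathway genes matched by locus. To check placement, all summits were moved by up to 2000 bp in either direction, 50 bp at a time. Per list and chromosome (10 cases), the fewest fell inside genes at moves of -50 to 50 bp. No coordinate of the table is printed. The planned motif description was not run, since no sequence was used here.

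Members and lists were chosen with earlier results of these data known. Named genes were the members, genes nearer to a member's summit, and the leading and empty genes of each pathway list; IAA19, IAA29 and genes beyond the window were chosen after their values were seen. No gene of like pattern was sought, since 2 lists give too few values. The assignment of summits to genes was checked on simulated positions. With 1 list per factor, no statistical test was made. Alternatives were −log10 p of at least 30, other windows, the strongest summit of each interval, lists of 13459 summits each, the nearest gene alone, other partner rules, ranking by fold and, added after seeing the data, the 1000 strongest summits by −log10 p or by fold. Python 3.11.15, pandas 2.3.3, NumPy 2.4.6 and matplotlib 3.10.9 were used.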

Additional observations from a re-analysis of the deposited data

How the results depend on the processing

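All 9 members kept summits of both factors with −log10 p of at least 30, with the strongest summit of each interval and with lists of equal length, against 42.8%, 52.9% and 50.3% of all genes. The number of summits at members fell with narrower windows, to 16 DIG1 and 22 DIG2 with 1000 bp and 16 and 20 with 500 bp, instead of 28 and 36. It fell to 21 for DIG2 with the strongest summit of each interval and to 18 for DIG1 with the nearest protein-coding gene alone, a rule under which PIL1 lost its DIG1 summit. Among the 1000 strongest summits of each list, 5 members and 6 summits remained for DIG1 and for DIG2, and 5 members for both; among the 1000 highest folds, 5 members and 5 summits remained for DIG1, 5 and 6 for DIG2, and 4 members for both. At partner distances of 50 or 200 bp, 28 of 28 DIG1 and 28 of 36 DIG2 summits had a partner. The list shares were 91.1% and 74.0% at 50 bp, and 95.7% and 77.6% at 200 bp. By intervals sharing at least 50% of the shorter, 28 of 28 DIG1 and 34 of 36 DIG2 summits had a partner. The list shares were then 97.4% and 83.4%. With lists of equal length, 26 of 28 DIG1 and 26 of 30 DIG2 summits had a partner, against 88.6% of each list. With −log10 p of at least 30, 23 of 24 DIG1 and 23 of 30 DIG2 summits had a partner, against 96.2% and 69.6% of the lists. By fold, the median rank of the strongest summit was 803 for DIG1 and 667 for DIG2. Of 18 ranks of single members 6 moved by over 1.5 times, for DIG1 at PIF5 (391 to 734) and PIF6 (241 to 522), and for DIG2 at PIF1 (1138 to 667), PIF5 (796 to 1211), PIF6 (138 to 415) and HFR1 (217 to 462). No paired analysis was possible because each factor has 1 list. Without depth, a gene with no summit, or a DIG2 summit without a DIG1 partner, may reflect detection.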
